A study of Mus musculus with 8 samples.

Results

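The Notch genes of cultured primary lung fibroblasts (pFBs) were examined as 10 named genes, grouped by role into receptors (*Notch1*, *Notch2*, *Notch3* and *Notch4*), ligands (*Jag1*, *Jag2* and *Dll1*) and target genes (*Hes1*, *Hey1* and *Heyl*). They were chosen by name, with no measured value in the rule, and all 10 were found among the 54532 entries of the gene count table. RNA sequencing compared 4 libraries of wild type (WT) pFBs with 4 libraries of pFBs homozygous (HOMO) for human IGFBP5, a secreted binding protein of insulin-like growth factors, which the HOMO mice express in all tissues from a CRISPR/Cas9 knock-in. Both groups came from female mice on a C57/black background and were grown in serum-containing medium with no treatment. The mice's age and the number of mice or cultures behind the 4 libraries of a genotype are not given in the sources used here, so the p-values measure the spread between libraries, which may be technical.

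Notch receptors sit in the plasma membrane and are activated by ligands of the Jagged and Delta families on a neighbouring cell. Ligand pulling exposes the receptor to an ADAM protease and then to gamma-secretase, which frees an intracellular part that enters the nucleus, joins the DNA-binding protein RBPJ and a Mastermind co-activator, and turns on genes of the *Hes* and *Hey* families, which encode transcriptional repressors. In the lung, Notch signalling is known for its part in airway cell fate and in the pericytes and smooth muscle of vessels, and it has been linked to myofibroblast formation.

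*Notch2* and *Jag1*, with the target *Hes1*, gave the highest level per length of exon of their roles, and sequence upstream of the receptor and of the ligand is shown because the comparison turns on them. It was taken from RefSeq's promoter table for GRCm38.p6, where 7 of the 10 genes had an entry, as the 250 bases before RefSeq's start of the gene. Since GENCODE M21, the annotation used for gene positions here, starts both genes further upstream, the last 11 bases of the *Notch2* window and the last 124 of the *Jag1* window lie inside the GENCODE gene and are not printed. What remains is chr3:98013288-98013526 on the + strand for *Notch2* (239 bases) and chr2:137116645-137116770 on the - strand for *Jag1* (126 bases), each printed 5′ to 3′ in the gene's own direction. Capitals mark the match to the N box CACNAG, which *Notch2* carries on the opposite strand, so that it reads CTAGTG, starting 247 bases before the RefSeq start and 236 bases before the GENCODE start.
Notch2: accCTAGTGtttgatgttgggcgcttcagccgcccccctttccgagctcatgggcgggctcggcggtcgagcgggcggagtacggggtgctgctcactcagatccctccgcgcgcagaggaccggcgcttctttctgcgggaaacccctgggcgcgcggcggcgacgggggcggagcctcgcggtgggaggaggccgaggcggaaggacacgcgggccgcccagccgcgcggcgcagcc
Jag1: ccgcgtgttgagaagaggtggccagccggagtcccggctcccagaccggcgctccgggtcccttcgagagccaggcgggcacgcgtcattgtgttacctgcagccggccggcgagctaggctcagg
G and C made up 74.1% of the *Notch2* stretch and 70.6% of the *Jag1* stretch. Searched on both strands of the whole 250 bases, the RBPJ core TGGGAA was in 0 of the 8 entries of the 4 receptors and 3 ligands, against 21.6% of all 32851 promoters, and the E box CACGTG was in 0 of 8, against 6.02%. The N box was in 3 of 8 entries, those of *Notch1*, *Notch2* and *Notch3*, against 36.7% of all promoters. The windows of *Notch1* and *Jag2*, and that of *Dll1* at chr17:15375824-15376073, lie wholly inside the GENCODE gene. That of *Notch4* lies partly inside. These counts therefore describe bases before a RefSeq start, not always upstream of the gene. No match overlapped another, and a match is a string of letters, not a measured binding site.

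Total counts ran from 17236521 to 29028769 in WT libraries and from 19009027 to 31987790 in HOMO libraries, and 3 counts in a library, taken as the floor of counting, came to between 0.0908 and 0.172 CPM, each library's counts scaled to the same total. All CPM here use library sizes scaled by edgeR's trimmed mean of M values. The libraries did not spread evenly within a genotype: WT1 with WT2, HOMO1 with HOMO2 and HOMO3 with HOMO4 differed by a biological coefficient of variation of 4.71 to 7.65%, and the 9 other pairs of one genotype by 30.1 to 56.5%. The 3 close pairs still differed by more than counting noise (a chi-square of 4.07 to 8.39 per degree of freedom over genes). That does not show independent samples, since repeat libraries of the same culture can also differ by more than counting noise. All 8 libraries were kept as separate samples in the main comparison, whose p-values are too small if the close pairs are repeats. At the thresholds given below, edgeR called 1716 genes in the main comparison. It called 0 with the close pairs summed, which also leaves fewer samples. The close pairs are named again where a result rests on them.

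The fibroblast label was checked against markers. The sum of 8 fibroblast markers was 12383 to 16035 CPM in WT and 13714 to 24000 CPM in HOMO libraries. *Col1a1* and *Col1a2* made up most of these sums, with 4845 and 3282 CPM in WT1. Of the 8 markers, 1 was called at the thresholds given below, *Vim*, which was lower in HOMO. *Thy1* also had a lower mean in HOMO, 67.4 CPM against 207 CPM in WT, but was not called (edgeR adjusted p = 0.116). *Col1a1* went the other way, with HOMO libraries above WT libraries, but was not called (edgeR adjusted p = 0.0985). Summed endothelial markers stayed at 2.42 to 8.59 CPM in WT and 2.67 to 6.13 CPM in HOMO, with *Tie1*, *Emcn* and *Cldn5* at 3 or fewer counts in each library. Epithelial markers summed to 0.450 to 6.43 CPM in WT and 4.28 to 16.2 CPM in HOMO, with *Nkx2-1* at 3 or fewer counts in each library. Of the 3 tested, 1 was called higher in HOMO, *Cdh1*, at 1.16 to 2.21 CPM there. *Krt18* and *Foxj1* had log2 fold changes of 0.66 and -0.57 and were not called. Untested markers added to single HOMO libraries: *Scgb1a1* had 3.33 and 6.59 CPM in HOMO2 and HOMO3, and *Krt8* had 4.81 CPM in HOMO4. Mesothelial markers summed to 52.2 to 156 CPM in WT and 92.2 to 131 CPM in HOMO, and 1 of the 5 tested, *Wt1*, was higher in HOMO. *Krt19* went the other way, with a mean of 16.9 CPM in WT and 2.04 CPM in HOMO, but was not called (edgeR adjusted p = 0.0856). Leukocyte markers, of which 6 of 8 were tested and *Cd3e* had 3 or fewer counts in each library, summed to 110 and 141 CPM in WT1 and WT2, 1871 and 1098 CPM in WT3 and WT4, 24.3 and 23.6 CPM in HOMO1 and HOMO2, and 134 and 156 CPM in HOMO3 and HOMO4. None of the 6 passed edgeR's test, with 4 at an unadjusted p under 0.05, against 32.3% of all genes tested. Markers of mural and smooth muscle cells summed to 1395 CPM in WT1 and again in WT2, 3328 CPM in WT3 and 1872 CPM in WT4. The sum was 511 and 497 CPM in HOMO1 and HOMO2, and 1846 and 1848 CPM in HOMO3 and HOMO4. *Acta2* and *Pdgfrb* made up most of it in each library. The paper lists *Acta2* among genes that IGFBP5 raised in pFBs in earlier work, so the sum does not measure mural cells alone. Of the 9 markers, 2 were called lower in HOMO, *Pdgfrb* and *Rgs5*. These counts of called markers stand beside 12.1% called over all genes tested. In bulk RNA, fewer cells of a type and less RNA per cell cannot be told apart.

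**Figure D1:**
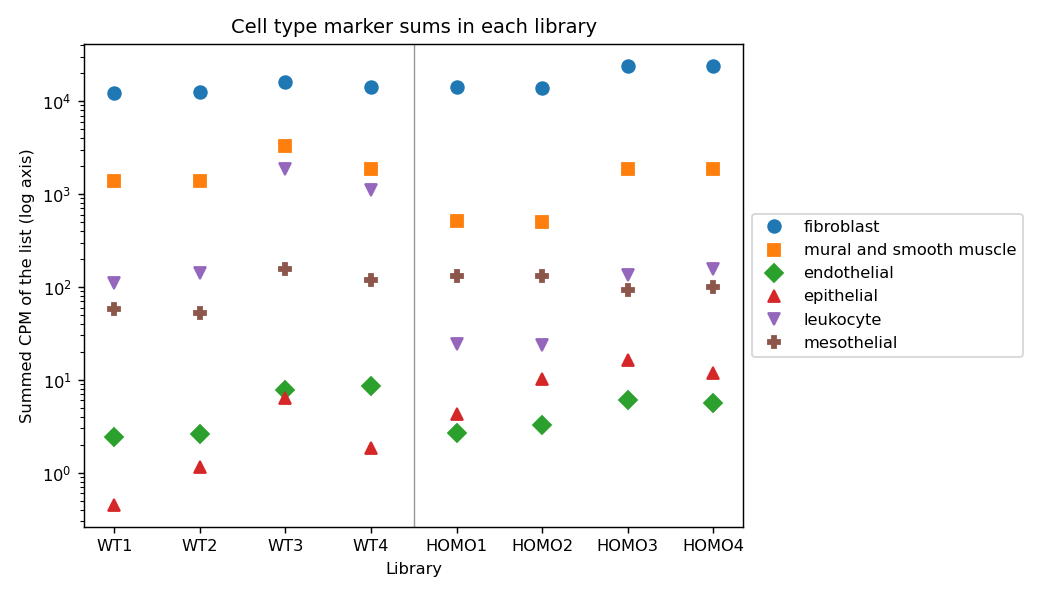
Summed CPM of 6 lists of cell type markers in each library, on a log axis, with a symbol for each list and the WT libraries to the left of the line. The leukocyte sum was highest in WT3 and WT4, at 1871 and 1098 CPM, and the mural sum lowest in HOMO1 and HOMO2, at 511 and 497 CPM.

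A gene was called different between HOMO and WT at a Benjamini-Hochberg adjusted p under 0.05 in edgeR's quasi-likelihood test and an absolute log2 fold change above 0.6. *Notch2*, the receptor with the highest level, was higher in HOMO pFBs and was the only one of the 8 tested Notch genes called. Its mean rose from 124 ± 17.7 CPM in WT to 191 ± 10.6 CPM in HOMO (SD, n = 4 each). *Jag1* and *Hes1* had lower means in HOMO than in WT, with a spread inside one genotype that left both above the threshold, and *Hey1* and *Heyl* were near the floor of counting. The call of 1 of 8, or 12.5%, stood beside 12.1% of the 14150 genes tested, and the median log2 fold change was -0.08 over the 8 genes and -0.04 over all genes tested.

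**Figure D2:**
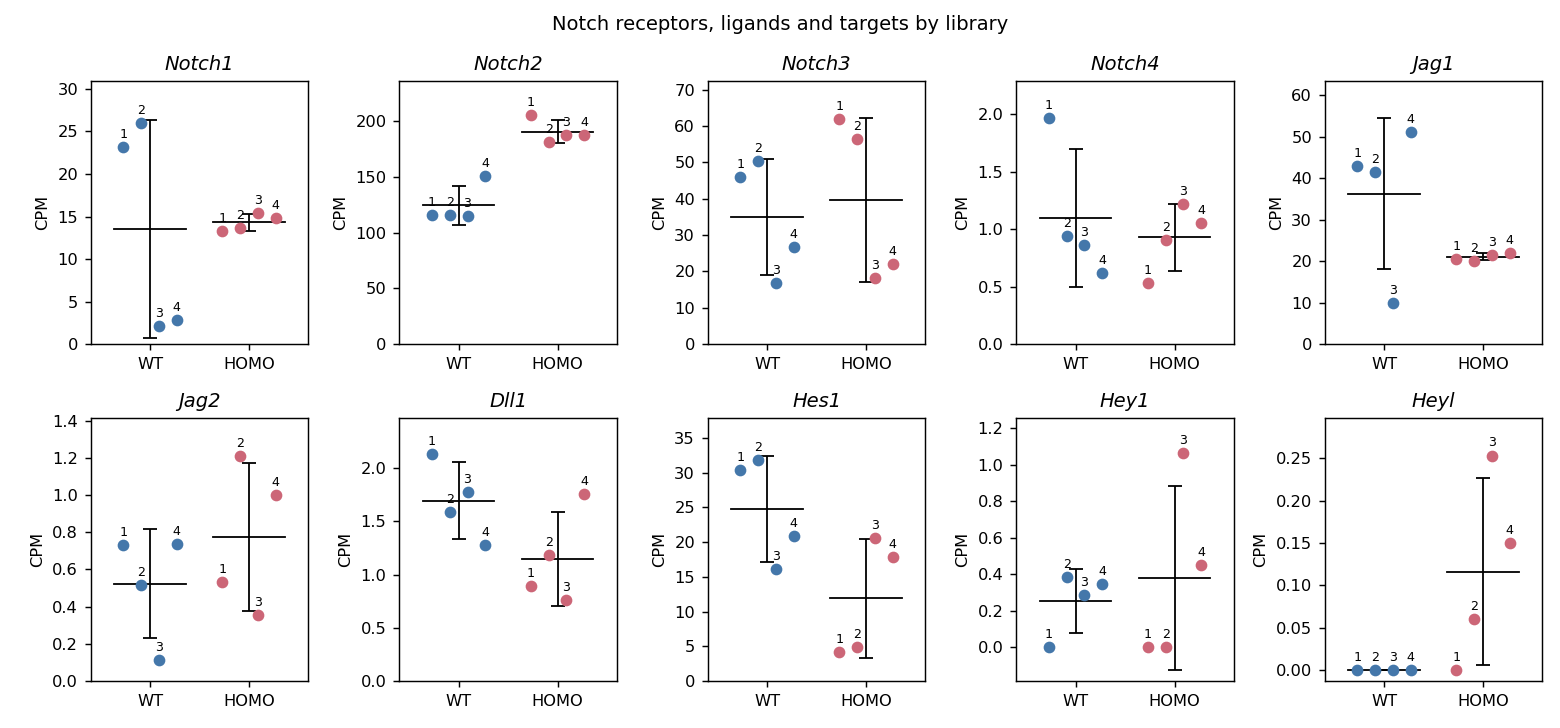
CPM of the 10 Notch genes in each of the 8 libraries, with numbered points for libraries and lines for the mean and SD of each genotype. The 4 HOMO values of *Notch2* run from 181 to 206 CPM and all lie above the 4 WT values, from 115 to 151 CPM, while the genotypes overlap for the other genes.

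*Notch2* lies at chr3:98013527-98150361 on the + strand (GRCm38, GENCODE M21, as for all gene positions given here). It had 116, 116, 115 and 151 CPM in WT1 to WT4 and 206, 181, 188 and 188 CPM in HOMO1 to HOMO4. The genotypes did not overlap, as for 27.3% of all genes tested, and WT4 stood above the other WT libraries. The log2 fold change was 0.61 (SE 0.13), or 1.53-fold, with an adjusted p of 0.0217 by edgeR, just past the fold threshold of 0.6. Leaving out any library except WT4 ended the call, with log2 fold changes of 0.58 to 0.72 over all 8 such fits, and so did summing the close pairs (0.59, edgeR adjusted p = 0.395). A share of 5.02% of its exon bases is shared with *Gm42820* on the same strand.

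*Notch1* lies at chr2:26457903-26516663 on the - strand, and 9.76% of its exon bases overlap *0610009E02Rik* and *Gm13568* on the opposite strand. Its level was 23.1 and 26.0 CPM in WT1 and WT2, 2.18 and 2.83 CPM in WT3 and WT4, and 13.3, 13.6, 15.4 and 14.8 CPM in HOMO1 to HOMO4. The WT libraries thus lay on both sides of the HOMO libraries, with an 11.9-fold range in WT and a 1.16-fold range in HOMO. WT3 and WT4, where *Notch1* was low, were the libraries with the highest leukocyte marker sums, and the part of those cells in the level was not tested. The log2 fold change was 0.08 (SE 0.73, edgeR adjusted p = 0.954). Without WT3 and WT4, a comparison chosen after seeing the data that leaves the close pair WT1 and WT2, it was -0.78 (edgeR adjusted p = 0.00486), the opposite direction.

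*Notch3*, the receptor known from pericytes and vascular smooth muscle, lies at chr17:32120820-32166852 on the - strand, with 6.03% of exon bases overlapping *Gm17276* on the opposite strand. It was measured at 46.0, 50.4, 16.8 and 26.7 CPM in WT1 to WT4 and at 62.0, 56.3, 18.3 and 22.0 CPM in HOMO1 to HOMO4. The high libraries were WT1, WT2, HOMO1 and HOMO2, so that the 3.01-fold range in WT and the 3.39-fold range in HOMO fell along the close pairs rather than the genotypes. In the same 4 libraries the mural marker sums were lower, at 497 to 1395 CPM, than the 1846 to 3328 CPM of the other 4. *Acta2* and *Pdgfrb* made up most of these sums, with 799 and 554 CPM in WT1. Not every marker followed the sum: *Rgs5* had 3.32 and 3.86 CPM in WT1 and WT2 and 0.689 CPM in WT3. *Acta2* can also come from the fibroblasts themselves, and the part of mural cells was not tested. The log2 fold change was 0.18 (SE 0.48, edgeR adjusted p = 0.827).

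*Notch4*, a receptor best known from endothelium, lies at chr17:34564268-34588503 on the + strand and had 15 to 35 counts in WT and 12 to 30 counts in HOMO libraries. Means were 1.10 ± 0.597 CPM in WT and 0.928 ± 0.291 CPM in HOMO (SD, n = 4 each), the ranges overlapped, and the log2 fold change was -0.24 (SE 0.44, edgeR adjusted p = 0.752).

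Per kilobase of exon, *Notch2* gave 58.7, 56.8, 82.1 and 79.7% of the summed level of the 4 receptors in WT1 to WT4 and 68.8, 67.7, 83.3 and 81.7% in HOMO1 to HOMO4. *Notch3* gave 15.9 to 32.9% in WT and 10.8 to 28.0% in HOMO, *Notch1* 1.13 to 9.64% and 3.38 to 5.18%, and *Notch4* 0.437 to 1.34% and 0.239 to 0.722%. *Notch2* thus held more of the receptor level than the other 3 together in each library, and its share overlapped between genotypes even though its level did not.

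**Figure D3:**
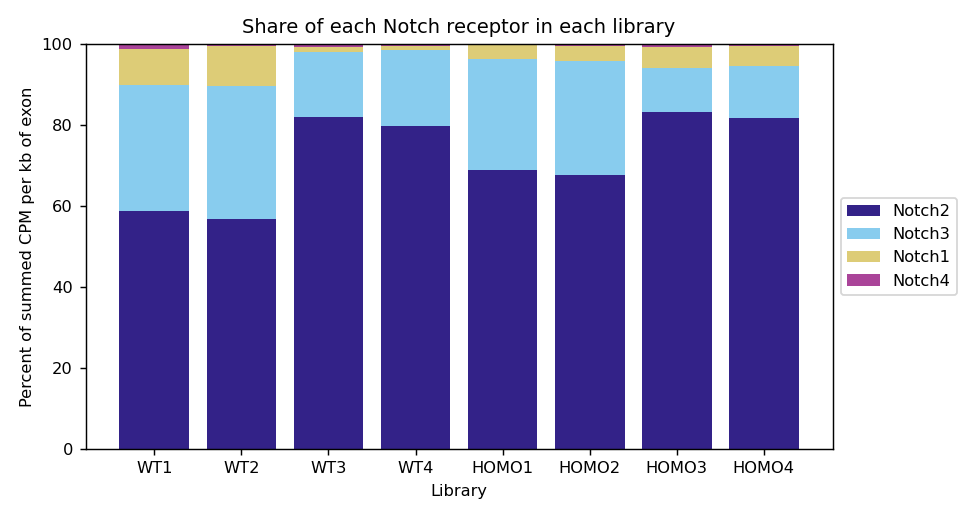
Share of each receptor in the summed CPM per kilobase of exon of *Notch1*, *Notch2*, *Notch3* and *Notch4*, in percent, one bar for each library. *Notch2* takes 56.8 to 82.1% in WT and 67.7 to 83.3% in HOMO libraries.

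*Jag1*, a Jagged-family ligand at chr2:137081456-137116644 on the - strand, was the main ligand of the 3 examined. It had 42.9, 41.5, 9.93 and 51.1 CPM in WT1 to WT4 and 20.6, 20.1, 21.5 and 22.0 CPM in HOMO1 to HOMO4. In 3 of the WT libraries it was above every HOMO library, and in WT3 it was below every HOMO library, giving a 5.14-fold range in WT and a 1.09-fold range in HOMO. With all libraries the log2 fold change was -0.79 (SE 0.41, edgeR adjusted p = 0.222), from means of 36.3 ± 18.1 CPM in WT and 21.0 ± 0.850 CPM in HOMO (SD, n = 4 each). WT3 decided the call: without it, the log2 fold change was -1.10 (SE 0.11, edgeR adjusted p = 0.00192). That fit set the close pair WT1 and WT2, with WT4, against the 2 close HOMO pairs. With the close pairs summed and WT3 kept, the log2 fold change was -0.70 (edgeR adjusted p = 0.669). limma-voom, with less weight on libraries that stand apart, called it lower with WT3 included, at -0.96 (adjusted p = 4.78e-04). WT3 also had the highest leukocyte marker sum, 1871 CPM, of which *Lyz2* gave 1707 CPM. WT4, with the next highest sum, 1098 CPM, had the highest *Jag1*. The part of such cells in the *Jag1* level was not tested.

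*Dll1*, a Delta-family ligand at chr17:15367354-15376872 on the - strand, had 31 to 38 counts in WT and 15 to 39 counts in HOMO libraries. In CPM these were 2.14, 1.59, 1.78 and 1.28 in WT1 to WT4 and 0.892, 1.18, 0.760 and 1.75 in HOMO1 to HOMO4. The ranges overlapped through HOMO4, and the log2 fold change was -0.56 (SE 0.35, edgeR adjusted p = 0.303). *A930024N18Rik* on the opposite strand overlaps 20.5% of its exon bases, and since the strand setting of the counting is not given, reads of the 2 genes may not be separated.

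*Jag2*, the other Jagged ligand, lies at chr12:112907819-112929776 on the - strand and was counted 13, 12, 2 and 19 times in the WT libraries, in order, and 12, 40, 7 and 20 times in the HOMO libraries. WT3 and HOMO3 were lowest, with overlap between genotypes, and a log2 fold change of 0.56 was fitted (SE 0.59, edgeR adjusted p = 0.546). The median of all chromosome 12 genes was itself shifted within the libraries, from -0.33 in WT1 to 0.33 in WT4 on the log2 scale, and with these shifts in the fit the log2 fold change of *Jag2* was 0.30 (edgeR adjusted p = 0.760). Per kilobase of exon, *Jag1* gave 79.5 to 95.5% of the level of the 3 ligands in WT and 87.1 to 94.1% in HOMO libraries.

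*Hes1*, the repressor that is the usual first readout of Notch activation, lies at chr16:30064384-30067796 on the + strand. It had 30.4, 31.9, 16.1 and 20.9 CPM in WT1 to WT4 and 4.15, 4.90, 20.6 and 17.8 CPM in HOMO1 to HOMO4. HOMO1 and HOMO2 lay below every WT library, and HOMO3 and HOMO4 lay among the WT libraries, so the low values belong to 1 of the 2 close HOMO pairs and the range inside HOMO was 4.98-fold. The log2 fold change was -1.07 (SE 0.54, edgeR adjusted p = 0.205), from means of 24.8 ± 7.61 CPM and 11.9 ± 8.58 CPM (SD, n = 4 each). HOMO1 and HOMO2 were also the libraries with the lowest leukocyte and mural marker sums, although the mural marker *Des* was higher there than in WT1 and WT2. The part of these cells, or of marker genes expressed by the fibroblasts themselves, was not tested. With limma-voom *Hes1* passed the thresholds, at -1.49 (adjusted p = 0.0131), in a fit that also counts the close pairs as separate samples.

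*Hey1*, at chr3:8663359-8667256 on the - strand, was counted 0, 9, 5 and 9 times in the WT libraries, in order, and 0, 0, 21 and 9 times in the HOMO libraries. Counts were thus absent in 1 WT and 2 HOMO libraries and most numerous in HOMO3, and the filter on low counts left the gene out of the edgeR test. The difference of mean CPM, HOMO minus WT, was 0.124 (two-sided exact permutation test, p = 0.714, n = 4 each). Without HOMO3 it was -0.105, the opposite direction.

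*Heyl*, at chr4:123233556-123249875 on the + strand, had 0 counts in all 4 WT libraries and 0, 2, 5 and 3 counts in HOMO1 to HOMO4. It was likewise outside the edgeR test, and the HOMO mean of 0.116 CPM lay within the range of the floor, so no fold is given. The two-sided exact permutation p was 0.143, where the smallest of 70 assignments of libraries can give 0.0286. Without HOMO1 it was 0.0286, the smallest that 35 assignments allow.

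Among the 3 targets, *Hes1* gave 98.9 to 100% of the level per kilobase of exon in WT and 96.4 to 100% in HOMO libraries. On that scale the order of mean levels in WT was *Hes1* at 12.2 CPM per kilobase, *Notch2* at 11.5, *Jag1* at 6.24, *Notch3* at 4.32, *Notch1* at 0.951, *Dll1* at 0.402, *Notch4* at 0.136, *Hey1* at 0.0782, *Jag2* at 0.0752 and *Heyl* at 0. Neighbours whose 4 libraries did not overlap were *Notch2* and *Jag1*, *Notch3* and *Notch1*, *Dll1* and *Notch4*, and *Jag2* and *Heyl*. All other neighbours overlapped, *Hes1* and *Notch2* included. In HOMO the order was *Notch2* at 17.7 CPM per kilobase, *Hes1* at 5.83, *Notch3* at 4.90, *Jag1* at 3.61, *Notch1* at 1.00, *Dll1* at 0.272, *Hey1* at 0.116, *Notch4* at 0.115, *Jag2* at 0.111 and *Heyl* at 0.0227. There *Notch2* did not overlap *Hes1*, nor *Jag1* *Notch1*, *Notch1* *Dll1*, or *Jag2* *Heyl*. *Hes1* and *Notch2* thus stood together at the top in WT and apart in HOMO, a difference of order that was not tested.

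**Figure D4:**
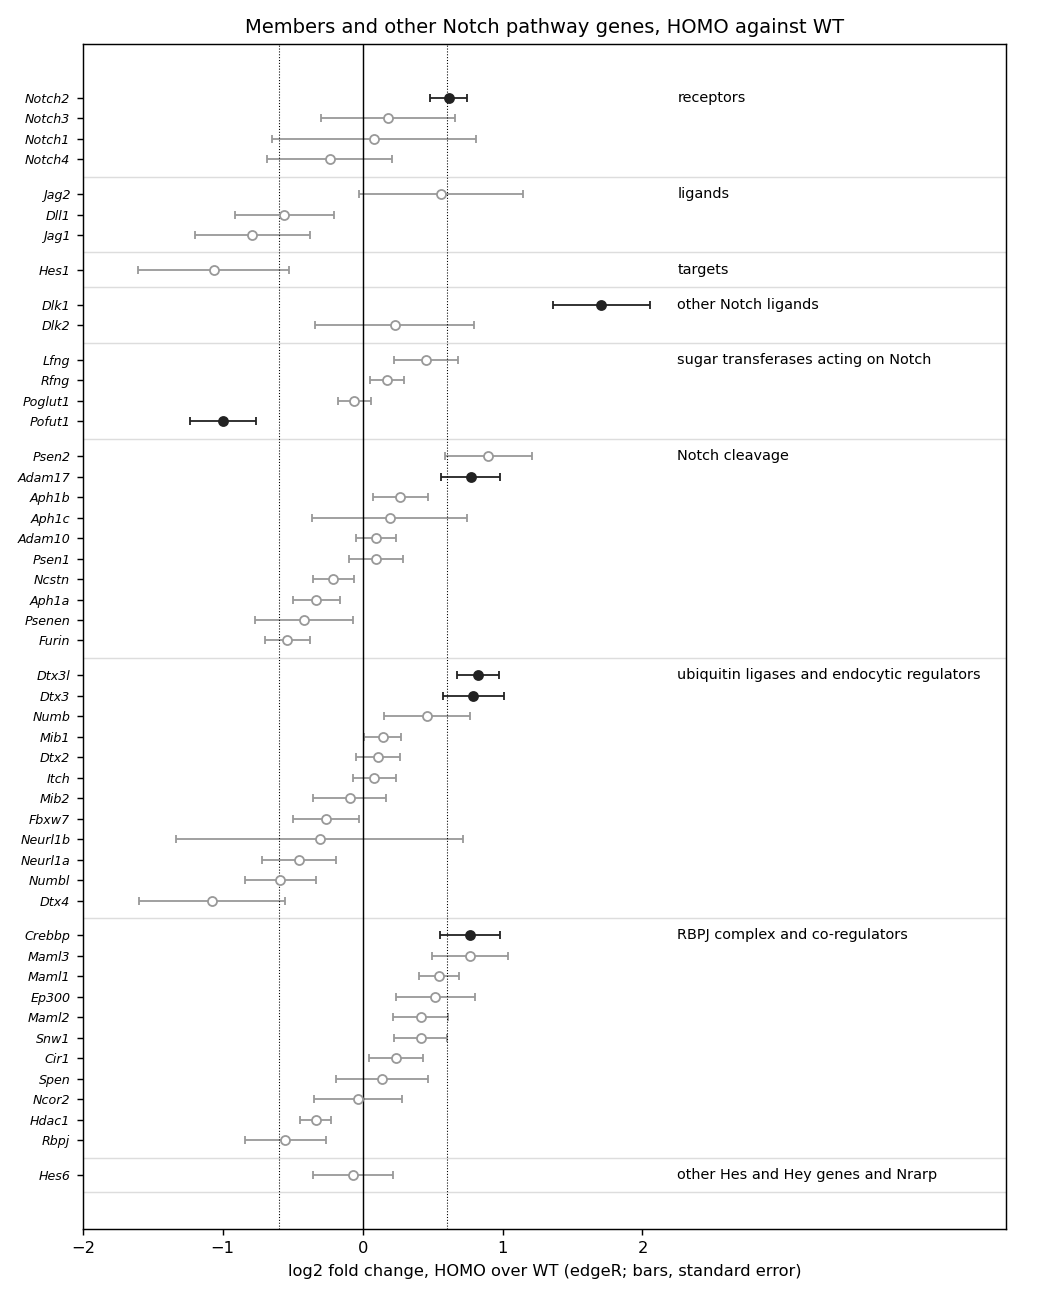
Log2 fold change of HOMO over WT with its standard error, from edgeR, for the 8 tested Notch genes and the 40 tested genes of the pathway, with dotted lines at the fold threshold. Filled points are called genes. *Notch2* at 0.61 is called, and the widest errors among the 8 are those of *Notch1* (SE 0.73), *Jag2* (SE 0.59) and *Hes1* (SE 0.54).

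Other genes that act on Notch were taken as 51 genes in 6 lists, of which 40 passed the filter on low counts. Of these, 6 were called (15% of those tested, against 12.1% of all genes), 5 higher in HOMO, against 5.94% of all genes, and 1 lower, against 6.18%. At an unadjusted p under 0.05 there were 12 of the 40, against 32.3% of all genes tested, and 10 of the 40 did not overlap between genotypes, against 27.3% of all genes tested. Their median log2 fold change was 0.12. The shares over all genes given here also stand beside the counts of each list below.

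Of the 5 other ligands, 2 were tested and *Dlk1* was called higher. *Dlk1*, a non-canonical ligand that lacks the DSL domain of the Jagged and Delta proteins, had 1.91, 2.14, 0.861 and 1.74 CPM in WT1 to WT4 and 4.90, 3.93, 7.35 and 5.66 CPM in HOMO1 to HOMO4. All HOMO libraries stood above all WT libraries, with a log2 fold change of 1.71 (SE 0.35, edgeR adjusted p = 0.0182). *Dlk1*, like *Jag2*, is on chromosome 12, and with the chromosome shifts in the fit the log2 fold change was 1.40 (edgeR adjusted p = 0.0435). *Dll4*, the Delta ligand of vessel tips, had 3 or fewer counts in each library. Among the 5 sugar transferases that act on Notch, 4 were tested and 1 was called lower, *Pofut1*, which adds O-fucose to the receptor. *Pofut1* had 73.0, 78.8, 117 and 149.6 CPM in WT1 to WT4 and 49.8, 46.0, 54.7 and 59.0 CPM in HOMO1 to HOMO4, without overlap. Its log2 fold change was -1.0 (SE 0.24, edgeR adjusted p = 0.0297), and -0.54 without WT3 and WT4, below the fold threshold.

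All 10 genes of the cleavage steps were tested, and *Adam17* was called higher. *Adam17*, a membrane protease that can cut Notch beside its main relative *Adam10*, had 37.9, 42.0, 54.6 and 56.4 CPM in WT1 to WT4 and 98.0, 99.4, 62.6 and 66.0 CPM in HOMO1 to HOMO4. HOMO1 and HOMO2 were well above the other libraries, HOMO3 and HOMO4 a little above WT, and the log2 fold change was 0.77 (SE 0.21, edgeR adjusted p = 0.0464). The gene is on chromosome 12, and once each library's chromosome shift was put into the fit the log2 fold change was 0.46 (edgeR adjusted p = 0.145). Of 13 ubiquitin ligases and endocytic regulators, 12 were tested and 2 were called higher, the Deltex-family ligases *Dtx3* and *Dtx3l*. *Dtx3* had 63.5, 62.2, 85.2 and 89.1 CPM in WT1 to WT4 and 145, 169.6, 96.9 and 108 CPM in HOMO1 to HOMO4, with a log2 fold change of 0.79 (SE 0.22, edgeR adjusted p = 0.0447). As for *Adam17*, the pair HOMO1 and HOMO2 was highest. *Dtx3l* had 12.5, 14.8, 15.9 and 12.2 CPM in WT1 to WT4 and 26.8, 24.4, 22.4 and 24.6 CPM in HOMO1 to HOMO4, with a log2 fold change of 0.82 (SE 0.15, edgeR adjusted p = 0.0131), and it differed little within either genotype. *Parp9* on the opposite strand overlaps part of its exons.

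Of the 11 genes of the RBPJ complex and its co-regulators, all tested, 1 was called (9.09%, against 12.1% of all genes), and it was higher in HOMO. In 4 of the 11 the genotypes did not overlap, against 27.3% of all genes, and the median log2 fold change was 0.41, against -0.04 over all genes. *Crebbp*, an acetyltransferase that joins the activating complex, had 48.7, 47.2, 25.5 and 37.7 CPM in WT1 to WT4 and 79.2, 71.0, 61.2 and 59.7 CPM in HOMO1 to HOMO4. WT3 was lowest and all HOMO libraries were above all WT libraries, with a log2 fold change of 0.77 (SE 0.21, edgeR adjusted p = 0.0477), a call that held in 2 of 17 alternatives. *Maml1*, the Mastermind co-activator, named after its values were seen, had a log2 fold change of 0.55 (SE 0.14, edgeR adjusted p = 0.0381), under the fold threshold. *Rbpj* itself, likewise named afterwards, had 239.6, 223, 116 and 323 CPM in WT1 to WT4 and 181, 174, 130.5 and 129 CPM in HOMO1 to HOMO4. As with *Jag1*, WT3 was the lowest library, and the log2 fold change was -0.55 with all libraries (SE 0.29, edgeR adjusted p = 0.220) and -0.77 without WT3 (edgeR adjusted p = 0.0287). Summing the close pairs gave -0.53 (edgeR adjusted p = 0.644). Of the 7 other *Hes*, *Hey* and *Nrarp* genes, 1 was tested, *Hes6*, with a log2 fold change of -0.07 (SE 0.29, edgeR adjusted p = 0.892). *Hes2*, *Hes3*, *Hes5* and *Nrarp* had 3 or fewer counts in each library, *Hes3* none in any.

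Of the 6 called pathway genes, none kept its call in every alternative. The calls of *Dlk1* and *Dtx3l* were lost in 5 of 17 alternatives each, that of *Pofut1* in 8, *Dtx3* in 10, *Adam17* in 11 and *Crebbp* in 15, and that of *Notch2* in 10. Summing the close pairs, under which 0 of 16130 genes were called by edgeR (2057 at an unadjusted p under 0.05), ended all of them at log2 fold changes of 1.80 for *Dlk1*, 0.82 for *Dtx3l*, -1.12 for *Pofut1*, 0.75 for *Dtx3*, 0.71 for *Adam17*, 0.87 for *Crebbp* and 0.59 for *Notch2*.

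**Figure D5:**
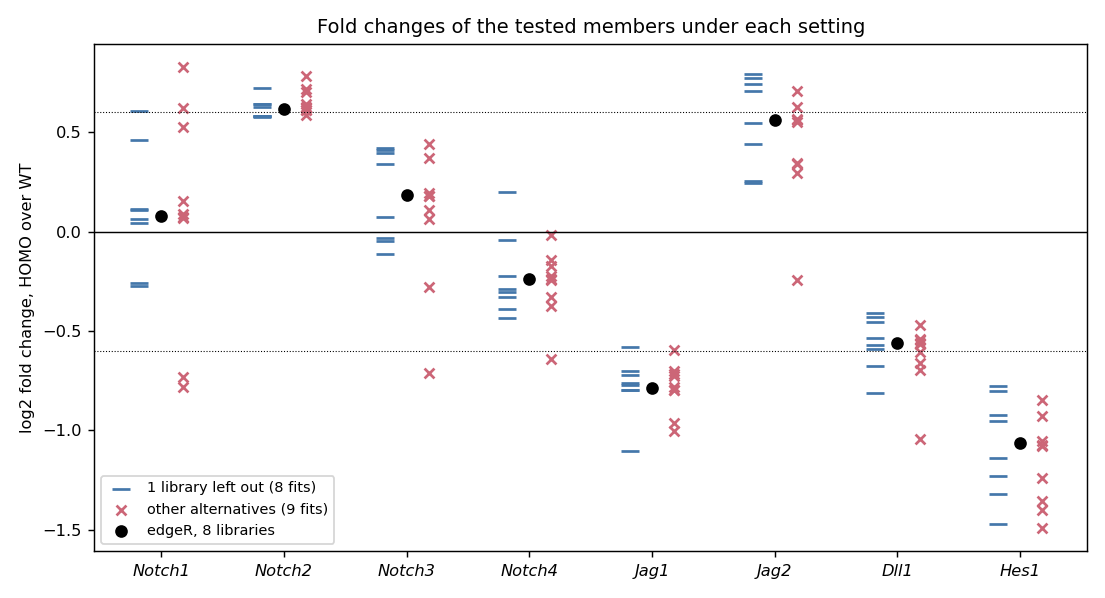
Log2 fold change of HOMO over WT for the 8 tested Notch genes in the main comparison, in the 8 fits that leave out 1 library each, and in 9 other alternatives. *Notch2* stays between 0.58 and 0.78 throughout, whereas *Notch1* and *Notch3* lie on both sides of 0.

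The genes whose profiles over the 8 libraries lay closest to those of the leading receptor, ligand and target were found by the mean absolute difference of log2 CPM, each gene centred on its own mean. Nearest to *Notch2* were *Tcf25* (0.0674), *Cpsf3* (0.0741) and *4632404H12Rik* (0.0758), on the log2 scale, where *Notch2* itself deviated from its mean by 0.311 on average. Nearest to *Jag1*, with its own deviation of 0.613, were *Adgrg2* (0.140), *Ptprk* (0.157) and *Smurf1* (0.160). *Hes1*, which deviated by 0.854, lay closest to *Lrrc32* (0.153), *Bok* (0.162) and *Katnal2* (0.167). The 8 libraries include the 3 close pairs, whose 2 libraries have nearly the same profile.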

How the data were processed

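The authors trimmed reads with fastp, aligned them to mm10 with STAR, and deposited raw gene counts from featureCounts, as their methods and processing notes state. Versions, annotation and the strand setting are not given in the sources used here. The deposited counts carry the label "outlierout", and whether a library was removed is not stated. The transgene was not analysed here. All 8 libraries were used, with 0 columns left aside. Of 54532 entries, 27324 had at least 1 count and 53679 matched 1 gene of GENCODE M21 (GRCm38), which gave positions and exon lengths.

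Genes passing edgeR's filterByExpr (14150) were normalized by TMM and compared between the genotypes with its quasi-likelihood F test, and p-values were adjusted over all of them (edgeR 4.0.16, limma 3.58.1, DESeq2 1.42.0, R 4.3.3, Python 3.11.15). Calls needed a log2 fold change beyond 0.6 in either direction and an adjusted p below 0.05, the thresholds of the authors' own DESeq2 analysis. Log2 CPM had a prior count of 2. *Hey1* and *Heyl*, below the filter, were compared by exact permutation of libraries. The procedure was run on simulated counts, drawn independently for each library. They held no close pairs, so the run does not show how the procedure performs with the close pairs seen here. Alternatives were RLE normalization, DESeq2, limma-voom with sample quality weights, no filter, no fold threshold, the replicate number as a block, summed close pairs, chromosome shifts as offsets and each library left out. Leaving out WT3 and WT4 together, and keeping 1 library of each close pair, were added after seeing the data.

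The members, lists and rules were chosen with earlier results of these data known. All 10 members are named, with each called gene of a pathway list (otherwise its 2 tested genes with the largest fold change) and the 3 genes with profiles nearest to the leading member of each role.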

Additional observations from a re-analysis of the deposited data

Results flagged for a closer look

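Within the 4 libraries of a genotype, 3 genes had 1 library that stood apart from the other libraries by Dixon's criterion, in which the gap to the nearest library is divided by the whole range. *Notch2* in WT4 reached 0.971, with a log2 CPM of 7.24 against 6.85 to 6.86 in the other WT libraries. WT4 thus lay nearest to the HOMO libraries, and without it the log2 fold change of *Notch2* was 0.72 instead of 0.61. *Jag1* in WT3 reached 0.873, with a log2 CPM of 3.32 against 5.38 to 5.68, and WT3 is the library that decides the *Jag1* call. *Hes6*, a *Hes*-family gene that antagonises *Hes1*, reached 0.888 in WT3, with a log2 CPM of 5.54 against 4.40 to 4.53, so that WT3 was low for *Jag1* and high for *Hes6*. These are 3 of 32 groups of libraries examined. The criterion supposes 4 independent libraries, and the close pairs depart from that, so no chance rate is given for comparison.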

How the results depend on the processing

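Whether the close pairs come from separate cultures is not given in the sources used here, and low counts limit *Notch4*, *Jag2*, *Dll1*, *Hey1* and *Heyl*. The 1716 genes called became 2913 with DESeq2, 3573 with limma-voom, 947 with the replicate block, 3117 without WT3 and WT4, and 0 by edgeR with close pairs summed or 1 library of each kept (2057 and 1753 at an unadjusted p under 0.05), and 507 to 2192 with 1 library left out. The 1 Notch gene called became 3 with limma-voom (*Notch2*, *Jag1* and *Hes1*) and 3 without WT3 and WT4 (*Notch1*, *Notch2* and *Jag1*), and 0 by edgeR with the replicate block, with summed pairs and with 1 library of each pair (1, 0 and 1 at an unadjusted p under 0.05). With 1 library left out it was 0 to 1, and without WT3 the 1 was *Jag1*. The 6 pathway genes became 10 with limma-voom, 3 with no filter, 3 with chromosome offsets, 9 without WT3 and WT4, 1 with the replicate block, and 0 by edgeR with summed pairs or 1 library of each (6 and 4 at an unadjusted p under 0.05), and 0 to 9 with 1 library left out. Of the 2 genes outside the test, 0 passed the exact permutation test, and 0 to 1 with 1 library left out.

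*Notch2* kept its direction in all 17 alternatives, at 0.64 with 1 library of each pair (edgeR adjusted p = 0.413), 0.62 with the replicate block (edgeR adjusted p = 0.0669) and 0.78 with chromosome offsets (edgeR adjusted p = 0.0180). Direction turned for *Notch1* with limma-voom (-0.73) and without WT3 and WT4 (-0.78), and between -0.28 and 0.61 with 1 library left out. It turned for *Notch3* in the same settings (-0.71, -0.28, and -0.11 to 0.42), for *Jag2* with 1 library of each pair (-0.25), for *Hes6* with limma-voom (0.25), the replicate block (0.011) and without WT3 and WT4 (0.34), and with 1 library left out for *Notch4* (-0.44 to 0.20), *Hes6* (-0.18 to 0.29) and the CPM difference of *Hey1* (-0.105 to 0.250). The cause was not tested. Over all single genes and alternatives, 201 values kept direction and call, 64 lost the call, 7 gained one and 18 turned direction. Same-numbered WT and HOMO libraries did not deviate together (correlations of -0.091, -0.0424, 0.0141 and -0.124), so they share only a number, and the replicate block is given here alone.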
